A study of Homo sapiens with 8 samples.

Results

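The genes described here make up the machinery that licenses and fires DNA replication origins and copies DNA at the fork. The list holds 51 genes, and all 51 had at least 1 probe set annotated to that gene alone, out of 19775 genes so represented on the array. For each gene the brightest of its probe sets was read, and all 51 also passed the filter on dim signals that left 14731 genes for testing. The cells were HTETOP, human fibrosarcoma cells of HT1080 origin in which TOP2A (topoisomerase II alpha) can be silenced with a tetracycline, and every group carries this system. One group of 3 arrays came from cells given 100 µM dexrazoxane, an inhibitor of topoisomerase II, for 24 h, and 3 arrays came from its vehicle. A separate pair had 1 array after 24 h with 1 µg/ml doxycycline, which switches TOP2A off, and 1 array of vehicle. RNA was pooled from 3 passages for each array (15 to 17 in the doxycycline pair). Nothing states that the numbered arrays are separate cultures, so p-values reflect only how far these arrays differ from each other, which could be technical in part.

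Replication starts where the origin recognition complex sits. CDC6 and CDT1 load the ring-shaped MCM helicase there in G1, which licenses the origin; in S phase CDC7 kinase, CDC45, MCM10 and the GINS complex turn the loaded ring into an active helicase. Polymerase alpha-primase lays primers, polymerases delta and epsilon extend them on the PCNA clamp that the RFC complex loads, and nucleases and a ligase join the fragments. Many of these genes are known as targets of E2F transcription factors, with transcripts that are most abundant around the G1/S boundary of dividing cells.

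Values are log2 expression after RMA, so a difference of 1 is 2-fold. Median values were 4.82 and 4.81 in the doxycycline pair but 5.49 to 5.57 on the dexrazoxane and vehicle arrays, so the 2 treatments were each compared with their own vehicle only. With doxycycline TOP2A read 6.02 against 11.98 with vehicle, 62.1-fold lower, as the labels imply. All 10 mesenchymal markers passed the filter. Of 8 epithelial markers KRT8, KRT18 and CLDN4 did, and EPCAM, CDH1, KRT19, ESRP1 and GRHL2 were below it. Of 5 leukocyte markers CD3E, LYZ and ITGAM passed, and PTPRC and CD14 did not. Of 5 endothelial markers PECAM1, VWF and TEK passed, and CDH5 and KDR did not. What the passing signals of these 2 lists come from was not tested. The mean log2 level of the epithelial list was 5.90 to 6.01 on vehicle and 6.02 to 6.16 on dexrazoxane arrays, with KRT8 higher by 0.51 (limma paired adjusted p = 0.0334); its part in the results below was not tested. The 3' and 5' control probe sets of ACTB differed by -0.04 to 0.11 over the 8 arrays.

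With dexrazoxane the replication genes were lower as a body. The mean difference from vehicle was below 0 for 48 of 51, against 45.4% of all genes tested, with a median of -0.35 (1.27-fold lower) where the median over all genes tested was 0.02. The range ran from -0.77 for MCM6, a subunit of the replicative helicase, to 0.13 for PCNA, the sliding clamp. In limma with the replicate number as a block, 25 of the 51 fell and 0 rose at an adjusted p under 0.05; over all genes tested the same fit called 2.44% lower and 2.42% higher. The 25 fell by 1.27- to 1.71-fold (limma paired adjusted p of 0.0049 to 0.0463). Genes lower in all 3 pairs at once numbered 36 of the 51, against 2863 of the 14731 genes tested. In limma without the block, 0 members were called in either direction (0% of all genes lower and 0% higher), with adjusted p of 0.830 to 1.00; at an unadjusted p under 0.05, 14 members were lower, against 2.04% of all genes. Fewer cells in S phase and less of each transcript per cell cannot be told apart in these pooled samples.

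**Figure D1:**
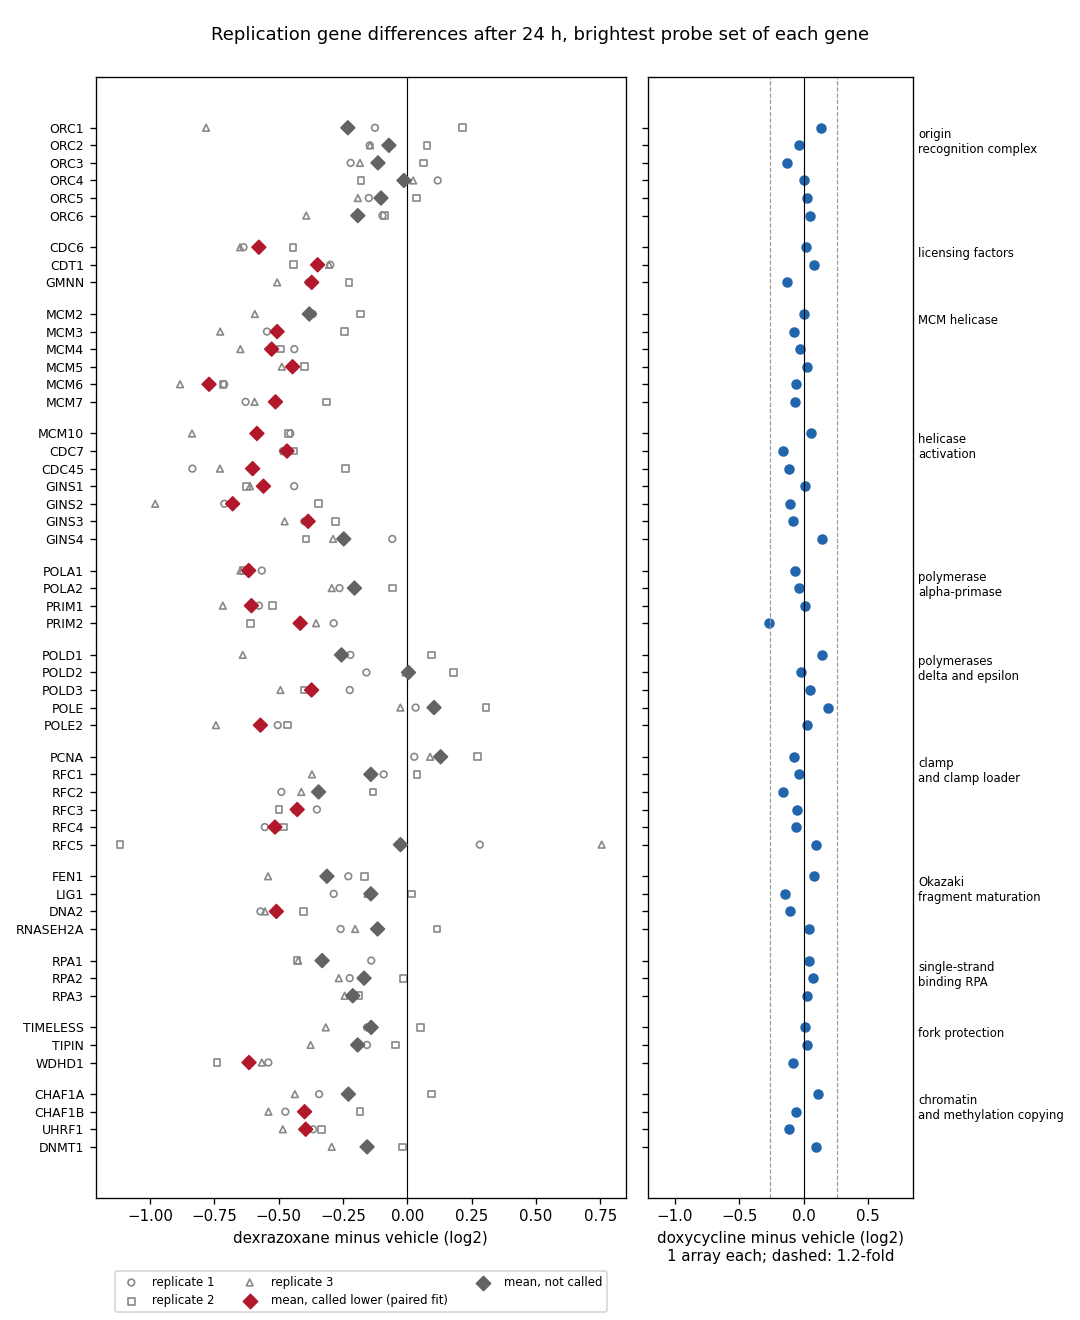
Log2 difference from vehicle for each of the 51 genes, grouped by role, with dexrazoxane on the left (open symbols, the 3 same-numbered pairs; diamonds, their mean, red where called lower in the paired limma fit) and the single doxycycline pair on the right. With dexrazoxane 48 of 51 means lie left of 0, whereas with doxycycline 25 lie left and 26 right of it.

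The difference between the 2 fits lies in a spread that the numbered arrays share. Relative to each gene's mean over the 6 arrays, the median member stood at 0.51, -0.04 and 0.06 on vehicle arrays 1, 2 and 3 and at 0.20, -0.24 and -0.41 on dexrazoxane arrays 1, 2 and 3. Array 1 was thus the highest in both groups, for 46 of 51 members among the vehicle arrays and for 44 among the dexrazoxane arrays. Over the members, the deviations of vehicle array 2 from its group mean correlated at 0.087 with those of dexrazoxane array 2 and at 0.575 with those of dexrazoxane array 3, so the members alone do not bear out the second pair, and the 25 calls depend on this pairing. Dexrazoxane array 1 lay above vehicle array 2 for 38 members, and the vehicle arrays 1 and 2 differed by a median of 0.55 over the members, more than the treatment did. For all genes tested the same within-group medians were 0.04 or smaller in size. The SD among vehicle arrays had a median of 0.338 over the members and 0.162 over all genes. The moderated standard error of the members' differences in limma had a median of 0.223 without and 0.084 with the block. Mitosis genes followed the same array pattern, with medians of 0.58, -0.03 and 0.07 on the vehicle arrays and 0.22, -0.41 and -0.39 on the dexrazoxane arrays; their part in the result was not tested.

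**Figure D2:**
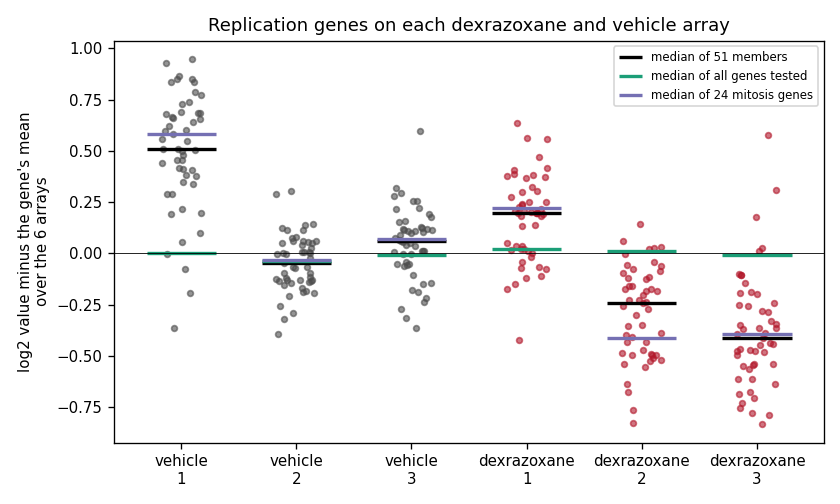
Each point is 1 of the 51 genes on 1 array, as its log2 value minus that gene's mean over the 6 arrays; bars mark medians of the 51 genes (black), of all genes tested (green) and of 24 mitosis genes (purple). The black bar is at 0.51 on vehicle array 1 and -0.41 on dexrazoxane array 3, while the green bars stay near 0.

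By pair, the median difference of the members was -0.30, -0.24 and -0.48 for replicates 1, 2 and 3, and 47, 38 and 48 members were below 0. Of the 14731 genes tested, 6847, 6448 and 7232 were below 0 in these pairs. Without replicate 1 the paired fit called 4 members lower, GINS1, MCM6, POLA1 and WDHD1, and without replicate 3 it called 15. The 4 named were called also without replicate 2, which gave 27. Of all 14731 genes tested these fits called 56, 200 and 414 lower, without replicate 1, 3 and 2 in turn. In comparisons without pairs, the median of -0.35 became -0.15, -0.45 and -0.39 when vehicle array 1, 2 or 3 was left out and -0.51, -0.27 and -0.23 when dexrazoxane array 1, 2 or 3 was. For 8 members the treated values were separate from the vehicle values. The treated arrays were all below in 7, against 3.62% of genes tested, and all above in 1, PCNA, against 6.53%. Of all tested genes, the 5% with the lowest differences lay at or below -0.27, and 29 of the 51 members were among them.

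**Figure D3:**
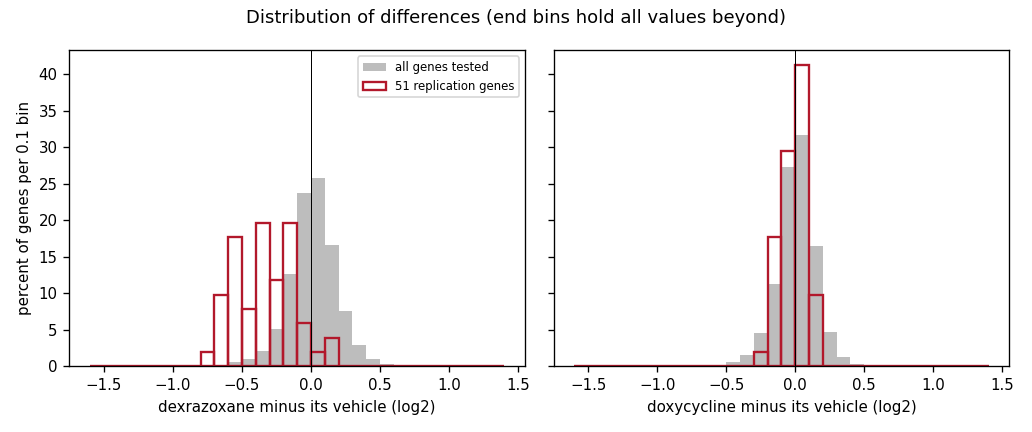
Percent of genes per bin of 0.1 log2 units for the 51 replication genes (red outline) and all 14731 genes tested (grey), for dexrazoxane on the left and doxycycline on the right. The red outline is shifted to the left of the grey with dexrazoxane, with medians of -0.35 and 0.02, and overlies it with doxycycline, with medians of 0.004 and 0.018.

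Promoter sequence was examined because the members moved together. RefSeq windows of 300 bases (GRCh38.p14), from 250 before to 50 after a transcription start, were at hand for 44 of the 51 genes. The E2F-type word searched was TTTCCCGC, TTTCGCGC, TTTGCCGC or TTTGGCGC, on either strand and with overlaps counted. It was present in a window of 22 of the 44 members (50%), against 3.31% of all 35116 windows and 6.04% of 11747 tested genes with a window. Among genes with a window in lists described below, 23.1% of other replication genes and 15.8% of mitosis genes held it. Of the 21 members called lower in the paired fit 14 held it, and of the 23 not called 8 did. The median dexrazoxane difference was -0.39 for the 22 genes with the word and -0.24 for the 22 without; the split was made after the differences were seen, and no test was run.

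The stretches below are 100 bases each, upstream of the start site in a window that holds the word, and overlap no gene span in the RefSeq table. They are shown to set members that were called lower (MCM6, MCM3, POLA1, GINS2, CDT1, RFC3) beside members that were not (LIG1, PCNA, POLE). Sequences run 5′ to 3′ on the gene's strand, and capitals mark the E2F-type words.
MCM6: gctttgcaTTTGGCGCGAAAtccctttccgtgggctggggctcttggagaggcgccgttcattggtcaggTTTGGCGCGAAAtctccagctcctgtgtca
MCM3: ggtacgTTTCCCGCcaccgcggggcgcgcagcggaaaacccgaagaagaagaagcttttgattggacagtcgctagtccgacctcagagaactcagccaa
POLA1: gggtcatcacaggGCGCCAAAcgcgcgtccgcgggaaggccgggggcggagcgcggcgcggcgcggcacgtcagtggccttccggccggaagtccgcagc
GINS2: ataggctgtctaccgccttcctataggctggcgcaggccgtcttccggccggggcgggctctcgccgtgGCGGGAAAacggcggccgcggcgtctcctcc
CDT1: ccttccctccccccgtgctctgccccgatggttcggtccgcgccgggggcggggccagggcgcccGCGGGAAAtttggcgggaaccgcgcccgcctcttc
RFC3: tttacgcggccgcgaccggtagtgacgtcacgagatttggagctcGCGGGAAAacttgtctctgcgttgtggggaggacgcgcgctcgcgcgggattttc
LIG1: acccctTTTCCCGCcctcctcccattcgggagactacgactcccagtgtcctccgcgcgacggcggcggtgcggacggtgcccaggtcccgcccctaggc
PCNA: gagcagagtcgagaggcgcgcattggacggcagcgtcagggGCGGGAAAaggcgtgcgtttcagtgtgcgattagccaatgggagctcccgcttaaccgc
POLE: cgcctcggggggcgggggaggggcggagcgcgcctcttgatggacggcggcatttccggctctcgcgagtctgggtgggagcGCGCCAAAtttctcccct
The stretches lie at MCM6 chr2:135876504-135876603 (minus strand), MCM3 chr6:52284823-52284922 (minus strand), POLA1 chrX:24693768-24693867 (plus strand), GINS2 chr16:85688955-85689054 (minus strand), CDT1 chr16:88803689-88803788 (plus strand), RFC3 chr13:33818049-33818148 (plus strand), LIG1 chr19:48170365-48170464 (minus strand), PCNA chr20:5126623-5126722 (minus strand) and POLE chr12:132687343-132687442 (minus strand). In MCM6, the member with the largest difference, the words on the 2 strands overlap at 2 places, which gives 4 matches. The words of LIG1 and PCNA read the same as those of MCM3, GINS2, CDT1 and RFC3 once strand is set aside. Whether the word bears on which members were called was not tested.

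Other words gave other shares. The CHR word TTTGAA, which is known from promoters of G2/M genes, was in no window of the 44 members (0 of 44). It was in windows of 14.3% of tested genes, 11.5% of other replication genes and 13 of 19 mitosis genes. Counted by window, 15.2% of all windows held it. The CCAAT box (CCAAT) was in windows of 26 members (59.1%), against 42.5% of tested genes. It was in those of 61.5% of other replication genes and 89.5% of mitosis genes, so its share was not particular to the members. The GC box (GGGCGG) was in windows of 33 members (75.0%), against 71.9% of tested genes, 84.6% of other replication genes and 73.7% of mitosis genes. Words with no match say only that the letters are not in these windows.

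**Figure D4:**
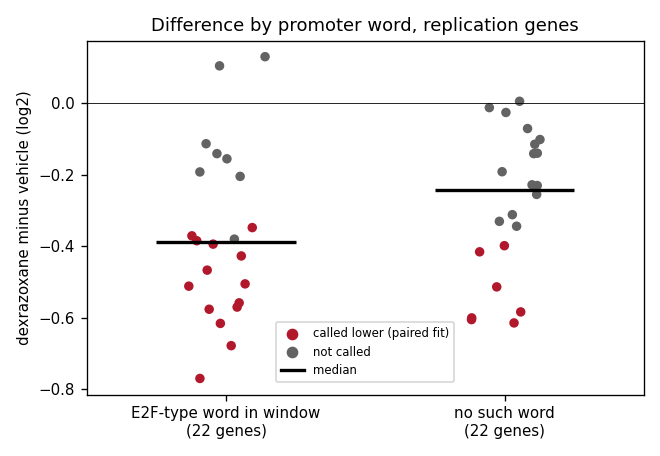
Dexrazoxane difference (log2) of the 44 genes that have a promoter window, split by whether a window holds the E2F-type word; red points were called lower in the paired limma fit and bars are medians. Both columns of 22 genes span called and uncalled genes, with medians of -0.39 and -0.24.

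The origin recognition complex, whose 6 subunits mark origins, had 0 called members in the paired fit, and its median difference was -0.11. ORC6, the smallest subunit, read 9.64, 9.23 and 9.46 on the vehicle arrays and 9.55, 9.15 and 9.07 on the dexrazoxane arrays, a difference of -0.19 (limma paired adjusted p = 0.242). ORC3 read 8.68, 8.57 and 8.65 against 8.46, 8.64 and 8.47, a difference of -0.11 (adjusted p = 0.471). In both genes treated and vehicle arrays overlapped. ORC1, an ATPase subunit, differed by -0.13, 0.21 and -0.78 in the 3 pairs (mean -0.23, adjusted p = 0.444). ORC2, ORC4 and ORC5 differed by -0.07, -0.01 and -0.10.

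All 3 licensing factors fell in the paired fit. CDC6, the ATPase that recruits the helicase to the origin complex, read 9.72, 9.02 and 9.32 with vehicle and 9.09, 8.58 and 8.67 with dexrazoxane. It fell by 0.58 ± 0.079 (moderated SE, n = 3 pairs) or 1.49-fold (limma paired adjusted p = 0.0122), although vehicle array 2 lay below dexrazoxane array 1. GMNN encodes geminin, the inhibitor of CDT1; its values were 10.68, 10.34 and 10.56 against 10.29, 10.11 and 10.05, with no overlap. It fell by 0.37 ± 0.082 (adjusted p = 0.0438). CDT1 itself fell by 0.35 ± 0.075 (adjusted p = 0.0408), so the loader and its inhibitor moved in the same direction. Without the filter on dim signals neither passed the threshold (limma paired adjusted p = 0.0647 for CDT1 and 0.0673 for GMNN). CDT1 was also not called whichever pair was left out, and GMNN was not called without replicate 1 or 3.

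Of the 6 subunits of the MCM helicase 5 fell, with a median over all 6 of -0.51. MCM6 read 10.77, 9.90 and 9.94 with vehicle and 10.05, 9.18 and 9.06 with dexrazoxane. Replicate 1 was the highest in both groups, and each treated array lay well below the vehicle array of its number. MCM6 fell by 0.77 ± 0.077 (moderated SE, n = 3 pairs), or 1.71-fold (limma paired adjusted p = 0.0049), the largest difference among the 51 genes. MCM4, another subunit of the ring, read 10.14, 9.59 and 9.64 against 9.71, 9.09 and 8.99 and fell by 0.53 ± 0.078 (adjusted p = 0.0153). Falls of 0.51, 0.45 and 0.51 were measured for MCM3, MCM5 and MCM7. MCM2 differed by -0.38 ± 0.093 and missed the threshold (adjusted p = 0.0586).

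Among the 7 helicase activation genes 6 fell, and their median of -0.56 was the lowest of the 11 roles. GINS1, a GINS subunit, read 9.90, 9.57 and 9.74 with vehicle and 9.46, 8.94 and 9.13 with dexrazoxane, without overlap. It fell by 0.56 ± 0.078 or 1.47-fold (limma paired adjusted p = 0.013). CDC45, which joins MCM and GINS in the active helicase, read 8.21, 7.54 and 7.60 against 7.38, 7.31 and 6.88, again without overlap. It fell by 0.60 ± 0.116 (adjusted p = 0.0308), though the pair of replicate 2 differed by -0.24 where the others differed by -0.83 and -0.73. GINS2 and GINS3 fell by 0.68 and 0.38, MCM10, which helps to activate the helicase, by 0.58, and the kinase gene CDC7 by 0.47. GINS2 rests on its brightest probe set: its other set above the filter differed by -0.03, and with the mean of its sets the difference was -0.19 (limma paired adjusted p = 0.172). The second set of GINS3 differed by -0.26, and with the mean of its sets GINS3 missed the threshold (adjusted p = 0.0592). GINS4 was the member not called, at -0.25 (adjusted p = 0.142).

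**Figure D5:**
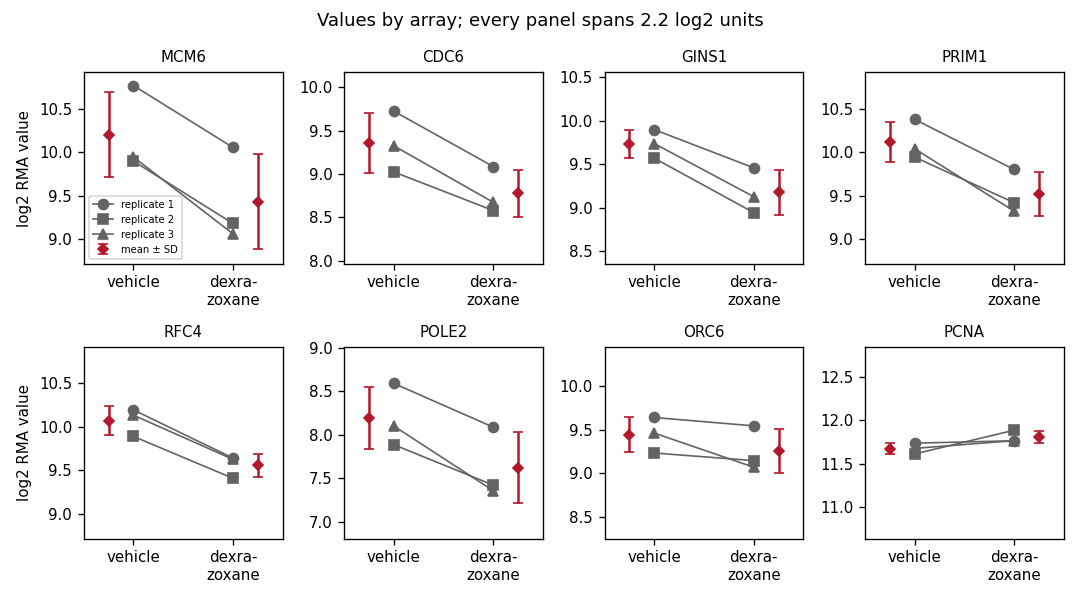
Log2 RMA values of 8 genes on the 3 vehicle and 3 dexrazoxane arrays; grey lines join arrays of the same number, and red diamonds with bars are group means ± SD (n = 3). The lines of MCM6, CDC6, GINS1, PRIM1, RFC4 and POLE2 all slope down while replicate 1 stays on top, ORC6 slopes down less, and PCNA does not slope down.

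Polymerase alpha-primase, which starts each new strand, had 3 of 4 subunits lower in the paired fit. PRIM1, the catalytic primase subunit, read 10.38, 9.94 and 10.04 with vehicle and 9.80, 9.42 and 9.32 with dexrazoxane, without overlap. It fell by 0.61 ± 0.077 or 1.52-fold (limma paired adjusted p = 0.011). PRIM2, the large primase subunit, read 7.66, 7.75 and 7.55 against 7.38, 7.14 and 7.19 and fell by 0.42 ± 0.087 (adjusted p = 0.0379). The arrays did not overlap there either. Another 4 probe sets are annotated to PRIM2 together with PRIM2BP and were not used, so cross-signal between these copies is possible for PRIM2. POLA1, the catalytic polymerase subunit, fell by 0.62 ± 0.073 (adjusted p = 0.00908), and POLA2 differed by -0.21 (adjusted p = 0.182).

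The 5 genes of polymerases delta and epsilon split. POLE2, the second subunit of polymerase epsilon, read 8.59, 7.89 and 8.10 with vehicle and 8.09, 7.42 and 7.36 with dexrazoxane and fell by 0.57 ± 0.084 (limma paired adjusted p = 0.0148). POLD3, an accessory subunit of polymerase delta, read 7.80, 7.06 and 7.17 against 7.58, 6.66 and 6.68 and fell by 0.37 ± 0.082 (adjusted p = 0.043), but differed by -0.24 with the mean of its probe sets (adjusted p = 0.0912). In both genes the group values overlapped and replicate 1 was highest in each group. The catalytic subunits did not pass the test. POLE read 7.83, 6.83 and 6.86 against 7.86, 7.14 and 6.84, a difference of 0.10 (adjusted p = 0.533), and POLD1 differed by -0.26 (adjusted p = 0.281). POLD2 read 9.12, 8.58 and 8.50 against 8.96, 8.76 and 8.49, a difference of 0.00498 (adjusted p = 0.982), with pairs of -0.16, 0.18 and -0.006. POLE and POLE2, which encode subunits of the same enzyme, thus lay on opposite sides of 0; the difference between them was not tested.

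PCNA and 2 subunits of its loader lay on opposite sides of 0; the difference between them was not tested. PCNA read 11.74, 11.61 and 11.68 with vehicle and 11.76, 11.88 and 11.76 with dexrazoxane: every treated array was above every vehicle array, and the spread within a group was small (SD of 0.062 and 0.070, n = 3). The difference of 0.13 ± 0.080 did not pass the test (limma paired adjusted p = 0.384). RFC4 read 10.20, 9.89 and 10.14 against 9.64, 9.41 and 9.63, without overlap. It fell by 0.51 ± 0.072 or 1.43-fold (adjusted p = 0.0136), with pairs of -0.55, -0.48 and -0.51. RFC3 read 10.38, 9.83 and 9.91 against 10.02, 9.33 and 9.48 and fell by 0.43 ± 0.075 (adjusted p = 0.0236). RFC2 differed by -0.34 (adjusted p = 0.0692) and RFC1, the largest loader subunit, by -0.14 (adjusted p = 0.415).

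RFC5 was singled out after its values were seen, because its brightest probe set differed by 0.28, -1.12 and 0.76 in the 3 pairs, the widest range of any member. Its other probe sets differed by -0.44 and -0.37 on average. RFC5 is therefore uncertain. Of the 23 members with several probe sets above the filter, all sets lay below 0 in 20, and MCM4, POLA2 and RPA1 had sets on both sides of 0. In MCM4 4 of the 5 sets differed by -0.68 to -0.44 and the fifth by 0.007.

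Of the 4 genes of Okazaki fragment maturation, 1 fell. DNA2, a nuclease and helicase, read 7.87, 6.95 and 7.19 with vehicle and 7.30, 6.54 and 6.64 with dexrazoxane and fell by 0.51 ± 0.076 (limma paired adjusted p = 0.0157). FEN1, the flap endonuclease, read 11.71, 11.16 and 11.29 against 11.48, 10.99 and 10.75, a difference of -0.31 (adjusted p = 0.0936). Its second probe set above the filter differed by -0.46. The ligase gene LIG1 and the ribonuclease gene RNASEH2A differed by -0.14 and -0.12 (limma paired adjusted p of 0.362 and 0.508).

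The single-strand binding complex RPA had 0 called subunits. RPA3, its smallest subunit, read 10.42, 10.37 and 10.62 with vehicle and 10.21, 10.18 and 10.38 with dexrazoxane, a difference of -0.21 (limma paired adjusted p = 0.133). RPA1 read 10.61, 10.04 and 10.16 against 10.47, 9.61 and 9.73, a difference of -0.33 (adjusted p = 0.069), and RPA2 differed by -0.17. All 3 were lower in each pair without passing the test.

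Of the fork protection genes WDHD1, which tethers polymerase alpha to the helicase, read 7.40, 6.72 and 6.78 with vehicle and 6.86, 5.98 and 6.21 with dexrazoxane. It fell by 0.61 ± 0.078 or 1.53-fold (limma paired adjusted p = 0.011). TIPIN read 8.71, 8.23 and 8.59 against 8.55, 8.19 and 8.22, a difference of -0.19 (adjusted p = 0.235), and its partner TIMELESS differed by -0.14 (adjusted p = 0.397).

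Genes that copy chromatin and DNA methylation behind the fork had 2 of 4 members lower. CHAF1B, a subunit of chromatin assembly factor 1, read 7.55, 7.07 and 7.10 with vehicle and 7.08, 6.88 and 6.57 with dexrazoxane and fell by 0.40 ± 0.090 (limma paired adjusted p = 0.0463). UHRF1, which brings the methyltransferase to hemimethylated DNA, read 10.37, 9.34 and 9.48 against 10.00, 9.01 and 8.99 and fell by 0.39 ± 0.075 (adjusted p = 0.0296). CHAF1A and the maintenance methyltransferase gene DNMT1 differed by -0.23 and -0.16 (adjusted p = 0.257 and 0.304).

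A list of 32 other replication genes, taken from general knowledge, had 30 genes with a probe set of their own, all tested. As with the mitosis and p53 lists below, earlier results of these data were known when it was chosen. In the paired fit 6 fell and 1 rose, with a median of -0.21. That fit called 2.44% of all genes tested lower and 2.42% higher. DBF4, the activator of CDC7 kinase, fell by 0.49 ± 0.086 (limma paired adjusted p = 0.0244). PCLAF, a PCNA-binding factor, fell by 0.39 (adjusted p = 0.0294) and MCM8, a relative of the MCM genes, by 0.53 (adjusted p = 0.0123), whereas the histone chaperone gene NASP differed by -0.26 (adjusted p = 0.087). The 1 that rose was POLD4, a small subunit of polymerase delta, by 0.37 (adjusted p = 0.0312). It was named after its value was seen. Beside these, in the same fit, 16 of 24 mitosis genes fell and 0 rose (median -0.40), and 8 of 15 p53 targets rose and 0 fell (median 0.42). The mean log2 level of the mitosis list was 9.51 to 10.13 on vehicle and 9.10 to 9.72 on dexrazoxane arrays. That of the p53 list was 9.12 to 9.49 and 9.68 to 9.77. The part of either list in the replication result was not tested.

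When doxycycline silenced TOP2A, the replication genes were close to their vehicle values. The median difference of the 51 was 0.004, with 25 below and 26 above 0, and over all genes tested it was 0.018, with 40.7% below 0. Of all genes tested 723 had the same value on both arrays, and 0 of the members did. The members' median turned to -0.018 with the mean of each gene's probe sets and to -0.0287 after quantile normalization. With 1 array a group there is no replicate check and no test. Of the 51 genes 36 lay within 0.1 of 0, and all lay between -0.27 and 0.19. At least 1.2-fold lower was 1 member, PRIM2, against 3.43% of all genes, and 0 were at least 1.2-fold higher, against 2.5%. PRIM2 read 7.20 with vehicle and 6.93 with doxycycline, a difference of -0.27 just past that bound of 0.263; with arrays centred on their medians 0 members passed it.

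Members with large dexrazoxane differences lay near 0 in the doxycycline pair. MCM6 read 10.42 with vehicle and 10.37 with doxycycline (difference -0.06), CDC6 9.24 and 9.26 (difference 0.02), and PRIM1 9.88 and 9.89 (difference 0.01). GINS2, a GINS subunit, read 9.28 and 9.18 (difference -0.10). The MCM subunits lay between -0.07 and 0.03 and the origin recognition subunits between -0.13 and 0.13. The highest differences were those of POLE at 0.19, GINS4 at 0.15 and POLD1 at 0.14, and after PRIM2 the lowest were those of RFC2 at -0.16, CDC7 at -0.16 and LIG1 at -0.14. PCNA read 11.30 and 11.23 (difference -0.08). Of the 25 members that fell with dexrazoxane 17 were below 0 with doxycycline, and of the 26 others 8 were. Across the 51 genes the 2 sets of differences, which have separate vehicle arrays, correlated at 0.334 (Pearson; Spearman 0.319); genes share arrays and are not independent, so no p is given. Whether the 2 treatments differ for any member could not be tested with a single doxycycline pair.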

How the data were processed

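The values the authors deposited are log2 signals of probe sets, and the submitters' processing notes name RMA; its version, and whether all 8 arrays were normalized together, are not given in the sources used here. Of 54675 probe sets 41097 carry 1 gene symbol in the platform annotation; symbols were brought up to date by Entrez ID from RefSeq (GRCh38.p14). Each gene was read from its brightest probe set (mean of all 8 arrays). Testing was limited to genes at or above the 40th percentile of probe set means (4.83 on the log2 scale): 14731 of 19775. Precision is limited by how few arrays there are.

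Dexrazoxane was compared with vehicle in limma 3.58.1 under R 4.3.3 (moderated two-sided test from lmFit and eBayes, with p-values adjusted by Benjamini-Hochberg across every gene tested and 0.05 as the bound), without and with the replicate number as a block. Same-numbered arrays were taken as pairs because deviations from group means correlated at 0.823, 0.574 and 0.716 between arrays numbered 1, 2 and 3. The sample titles carry these numbers but do not state that the arrays are pairs. These correlations come from the same values that were then tested, and the paired adjusted p-values do not allow for that choice. Over the members alone these were 0.898, 0.087 and 0.714, and vehicle array 2 correlated better with dexrazoxane array 3 (0.575) than with its own number. Standard errors printed after ± are the moderated ones of the paired limma fit. They draw on the variances of all genes tested and are not the plain SE of a gene's 3 pair differences. Doxycycline has 1 array a group, so differences and counts past 1.2-fold are given. The procedure was tested on simulated data, and no result of that is given here.

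The members and lists were chosen with earlier results of these data known. Values on every array are given in each role for the 2 members of lowest p when no block was fitted, and for members above 0 with dexrazoxane or past 1.2-fold with doxycycline; of the other replication genes, the 4 of lowest p. Listed genes without a probe set of their own were not analysed here. Promoter words were counted in RefSeq windows.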

Additional observations from a re-analysis of the deposited data

How the results depend on the processing

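With the replicate block the members called lower went from 0 to 25, and those called higher stayed at 0. Without the block 0 members were called under the other filters, probe set rules, scalings or variance model, or when 1 array was left out; the lowest adjusted p of a member there was 0.496. With the block, the other settings gave 18 to 30 members lower. Over everything tested they gave 230 (no filter) to 852 lower, the 852 and the 30 members both under the other variance model. Leaving out a pair gave 4, 27 and 15 members lower (replicates 1, 2 and 3), against 56, 414 and 200 of all 14731 genes tested. It gave 0 to 1 members higher, the 1 being RFC5 without replicate 2, where 416 of all genes were higher. The median dexrazoxane difference ran from -0.39 to -0.31 over the other probe set rules, scalings and left-out pairs, against -0.35, and from -0.51 to -0.15 when a single array was left out. The doxycycline median of 0.004 turned to -0.018 with the mean of probe sets and to -0.0287 after quantile normalization over the 8 arrays, and with arrays centred on the median 0 members were at least 1.2-fold lower. Filters, probe set rules or scalings ended the paired call of 10 members, CDT1, GMNN, MCM3, CDC45, GINS2, GINS3, PRIM2, POLD3, CHAF1B and UHRF1, in at least 1 setting each. With the block, 58 of 559 values of single members lost the call and 14 gained it. Direction changed when 1 array was left out, without the block, for ORC1 (-0.57 to 0.13), ORC2 (-0.15 to 0.0101), ORC4 (-0.11 to 0.0602), ORC5 (-0.23 to 0.0465), POLD1 (-0.51 to 0.0749), POLD2 (-0.11 to 0.20), POLE (-0.19 to 0.43), RFC1 (-0.34 to 0.0311), RFC5 (-0.32 to 0.38), LIG1 (-0.36 to 0.15), RPA2 (-0.35 to 0.0399), TIMELESS (-0.30 to 0.0273), CHAF1A (-0.41 to 0.00499) and DNMT1 (-0.34 to 0.0865). With the block and 1 pair left out it changed for ORC1 (-0.45 to 0.0448), ORC4 (-0.0783 to 0.0706), POLD2 (-0.0826 to 0.0868) and RFC5 (-0.42 to 0.52). The cause was not tested. Values near the filter carry the least signal over background.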
